A study of Mus musculus with 2 samples.

Results

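Mir21a is the single mouse gene for the microRNA miR-21a, and it was followed here through 2 microRNA sequencing libraries of adrenal gland. It was picked by name, as a hairpin that published work on adrenal cortex cells links to angiotensin II and aldosterone, and not for any value in these libraries. It is 1 of 2202 annotated microRNA genes in the count tables and 1 of the 352 with at least 10 sense-strand counts in both libraries, which are called detected below. The glands were taken at 25 days of age from male B6CASTF1/J mice, which are F1 hybrids between the inbred strains C57BL/6J and CAST/EiJ, and whole glands hold cortex and medulla together. There was 1 group of 2 biological replicates, with no treated, mutant or second group. The response to angiotensin II therefore cannot be examined in these samples, and nothing here places Mir21a in the cortex. Separate animal numbers are given in the labels, yet a single donor entry covers both, so an SD over n = 2 describes how far these libraries lie apart, a spread that may be technical.

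A microRNA gene is transcribed as part of a longer RNA, from which a hairpin is cut out and trimmed to a duplex of about the length of the final molecule. One strand, the guide, is loaded into an Argonaute protein and pairs with messenger RNAs mainly through its seed, the bases near its 5′ end, which lowers their translation and stability. The guide of Mir21a is miR-21a-5p, one of the most widely expressed microRNAs of mammalian tissues, known from fibroblasts, leukocytes, growing tissue and tumours. In human adrenocortical cells, angiotensin II, the peptide that drives aldosterone secretion, has been reported to raise miR-21.

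The sequences show both mature arms of this gene and how closely its relatives resemble them. They are RefSeq entries on GRCm38.p6, the assembly that mm10 names, with the seed (bases 2 to 8) in capitals. Mir21b and Mir21c are the other hairpins named for miR-21 in the mouse.
miR-21a-5p: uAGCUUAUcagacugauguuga
miR-21a-3p: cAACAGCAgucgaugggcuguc
miR-21b: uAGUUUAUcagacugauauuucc
miR-21c: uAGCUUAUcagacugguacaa

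The guide miR-21a-5p lies at chr11:86584120-86584141 and its partner miR-21a-3p at chr11:86584082-86584103, both on the minus strand. Of 1679 mature microRNA names in the RefSeq table, only miR-21c had the same seed as miR-21a-5p, and none other had the seed of miR-21a-3p. Counting positions from the 5′ end of miR-21a-5p, miR-21b differs inside the seed (C4U) and again near the 3′ end (G18A, G21U, A22C). The first 15 bases of miR-21c are those of miR-21a-5p, and all of its differences lie beyond them (A16G, G18A, U19C, U20A, G21A).

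Neither relative contributed to the measured pool. Mir21b, on chromosome 3, had 0 sense counts in both libraries, and so did Mir21c, on chromosome 8. Levels are given as sense counts per 1000000 sense counts at microRNA genes (CPM), on which scale a count of 0 allowed up to 0.836 in replicate 1 and up to 0.661 in replicate 2. The longest stretch that the 92-base Mir21a hairpin shares with any of the 2201 other annotated hairpins, on either strand, is 15 bases, with Mir21c. Mir21b shares 13 bases with it and Gm44382 shares 12. Across 141767 annotated transcripts, each arm was found in Mir21a itself and in Vmp1-201, the transcript that contains the hairpin, and in no other. The genome outside annotated transcripts was not searched. Reads that mapped to several places were not counted at any gene, and no annotated copy was found that would withhold full-length miR-21a reads in this way.

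Mir21a (ENSMUSG00000065455.1) lies on the minus strand of chromosome 11 (mm10, 86584067 to 86584158). In GENCODE M21 it sits inside the last exon of Vmp1, which encodes a membrane protein of the endoplasmic reticulum needed for autophagy. That exon is the last of 12 in Vmp1-201, and the hairpin falls in its 3′ untranslated region (UTR), 1149 bases after the stop codon and 202 bases before the annotated end of the transcript. The start of Vmp1 is 99.7 kb upstream. The primary transcript of miR-21 is known to start within the Vmp1 gene as well as to arise by read-through, and short reads cannot tell these sources apart. As computed with RNAfold, the hairpin folds with a minimum free energy of -46.2 kcal per mol and 38 base pairs. The 5p arm occupies bases 18 to 39 of the hairpin and the 3p arm bases 56 to 77, with 16 bases between them, and 19 of the pairs join the arms. The count tables give 1 value per hairpin, so the arms were not separated and the counts cannot be assigned to guide or partner.

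**Figure D1:**
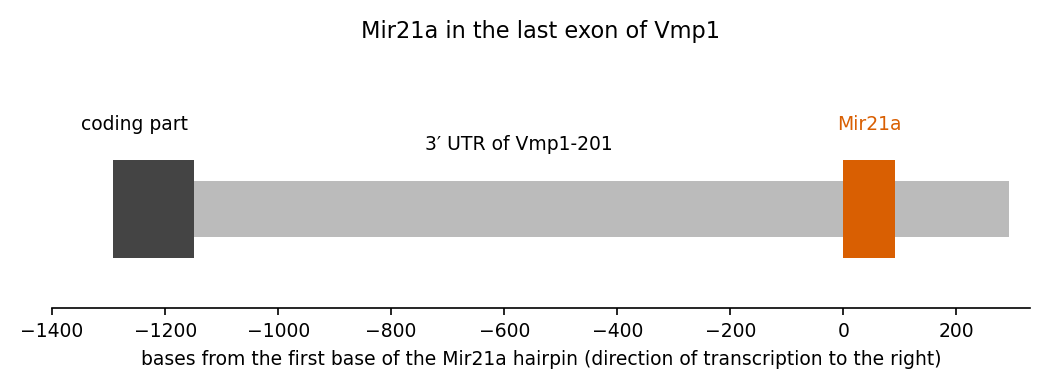
The last exon of Vmp1-201 drawn to scale, with bases from the first base of the Mir21a hairpin on the horizontal axis and transcription running to the right. The dark block is the end of the coding part, the grey bar the 3′ UTR and the orange block the 92-base hairpin, which begins 1149 bases after the stop codon.

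Few of the detected hairpins lay in 3′ UTRs, and most of these were scarce, with Mir21a and Mir324 as the exceptions in level. How many of all annotated hairpins lie in 3′ UTRs was not counted. Among the 352 detected hairpins, 7 lay wholly within the 3′ UTR of a coding transcript on the same strand, with a median of their mean levels of 6.73 CPM. Mir21a, at a mean of 12947 CPM, was the highest of the 7. Next came Mir324, in Dvl2, with 1628 CPM in replicate 1, against 1661 CPM in replicate 2. The others were Mir331, Mir5113, Mir7219, Mir147 and Mir3061, with means of 3.40 to 29.7 CPM. Of these 7, only Mir21a passed the test between the libraries described below, which called 67% of all 352 detected hairpins. Mir331 had 96 and 148 sense counts, and Mir5113, Mir7219, Mir147 and Mir3061 had at most 27 in either library. The test had little power at such counts, so against these hairpins the call sets Mir21a apart mainly in depth. Mir324 had 5842 and 7543 sense counts, and it differed from Mir21a in its log2 ratio, -0.03 against 1.23.

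Mir21a was among the abundant hairpins of the gland in both libraries, but its level was far from equal in them. It had 65189 sense counts in replicate 1 and 35095 in replicate 2. Set against all sense counts at microRNA genes, 3588361 in replicate 1 and 4541373 in replicate 2, these are 18167 CPM (18029 to 18306, exact Clopper-Pearson 95% interval) and 7728 CPM (7648 to 7809). The mean was 12947 CPM ± 7381 (SD, n = 2), an SD of 57.0% of the mean. Mir21a made up 1.82% of microRNA counts in replicate 1 and 0.773% in replicate 2. As a share of all input reads, mapped or not, it made up 0.752% and 0.341%. No molecular identifiers were used to count molecules, so the intervals speak for read counting alone.

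Its reads came from 1 strand. Antisense counts at Mir21a were 0 in both libraries, and no annotated hairpin lies opposite it, so the either-strand column held the same 65189 and 35095 counts. A count of 0 allows antisense reads of up to 0.00460% of the sense counts in replicate 1 and 0.00855% in replicate 2.

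By rank Mir21a stood 15th in replicate 1, between Mir139 at 25866 CPM and Mir30e at 16006 CPM. In replicate 2 it stood 23rd, between Mir30a at 7927 CPM and Mir335 at 7124 CPM. The most abundant hairpin of each library had 5.31 times the counts of Mir21a in replicate 1, where it was Mirlet7g, and 25.6 times in replicate 2, where it was Mir122. Hairpins from the top down to and including Mir21a held 69.4% of the counts in replicate 1 and 81.0% in replicate 2. By mean level Mir21a ranked 20th. The 3 hairpins above it were Mirlet7d (15469 CPM ± 3946), Mir30e (14500 CPM ± 2130) and Mir127 (13473 CPM ± 640.2). The 3 below it were Mir99a (12685 CPM ± 927), Mir30a (11184 CPM ± 4606) and Mir335 (9266 CPM ± 3029; SD, n = 2 for each). Each of these 6 means lay closer to that of Mir21a than the SD of Mir21a itself. Mir335 stood below Mir21a in both libraries, at 11407 CPM in replicate 1 and 7124 CPM in replicate 2. Each of the others stood below Mir21a in replicate 1 and above it in replicate 2, so their order around it is not resolved. These are counts of short molecules with no correction for length or for how well each sequence is captured.

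**Figure D2:**
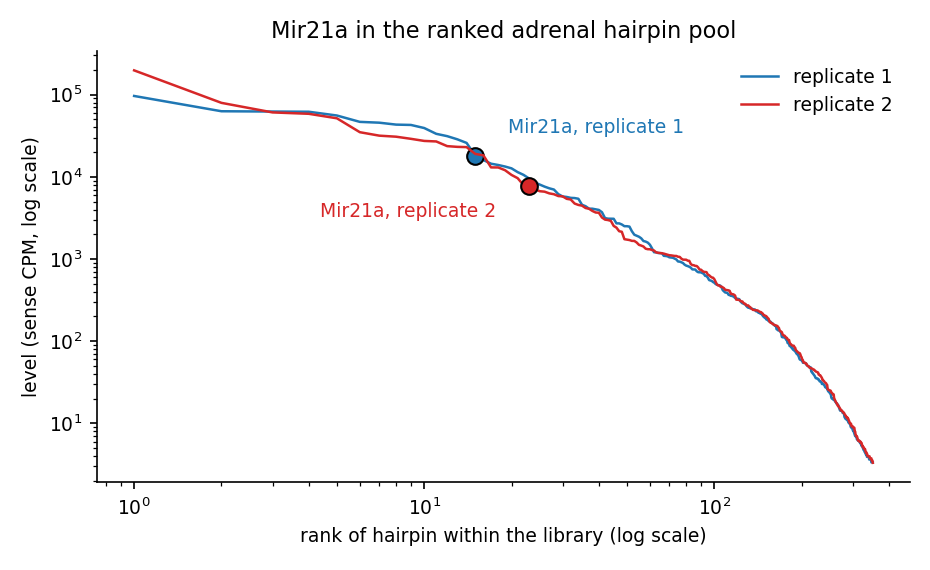
Level in sense CPM (vertical, log scale) against rank within the library (horizontal, log scale) for the 352 highest hairpins of replicate 1 (blue) and replicate 2 (red). The filled points mark Mir21a, 15th at 18167 CPM in replicate 1, against 23rd at 7728 CPM in replicate 2.

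The difference between the libraries was large for a hairpin of this abundance. Mir21a was 2.35-fold higher in replicate 1 (2.32 to 2.38, exact interval), a log2 ratio of 1.23. An exact two-sided binomial test, run on every detected hairpin and adjusted by the Benjamini-Hochberg method, called Mir21a as higher in replicate 1, with an adjusted p smaller than a double-precision number can hold. That test compares these libraries and not conditions, and at this depth it called 236 of 352 detected hairpins, 67%, of which 129 (36.6% of those tested) were higher in replicate 1 and 107 (30.4%) in replicate 2. A call by itself therefore sets Mir21a little apart. The size of its ratio was less common. The median log2 ratio over the detected hairpins was 0.04, with quartiles of -0.37 and 0.49. Mir21a had the 19th highest ratio of the 352, and the 5th highest of the 71 with a mean of at least 1000 CPM. These ranks count only hairpins higher in replicate 1. Without regard to direction its log2 ratio was the 42nd largest of the 352. Differences of over 2-fold were seen at 26 detected hairpins higher in replicate 1, Mir21a among them, and at 36 higher in replicate 2. Among the 25 most abundant hairpins, 4 differed by over 2-fold in either direction, and Mir21a was one of them beside Mir122, Mir10b and Mir22.

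A higher ratio than that of Mir21a was seen at 8 detected hairpins whose mean reached 100 CPM. They were Mir10b, of the HoxD region; Mir145a, known from smooth muscle; Mir140, known from cartilage; Mir142 and Mir223, known from blood cells; Mir674; and Mir376a and Mir380, of the imprinted Dlk1-Dio3 region. Their ratios ran from 2.42-fold for Mir223 to 5.51-fold for Mir380. Mir10b was the only one of them above Mir21a in mean level, with 31262 CPM in replicate 1, against 10544 CPM in replicate 2.

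**Figure D3:**
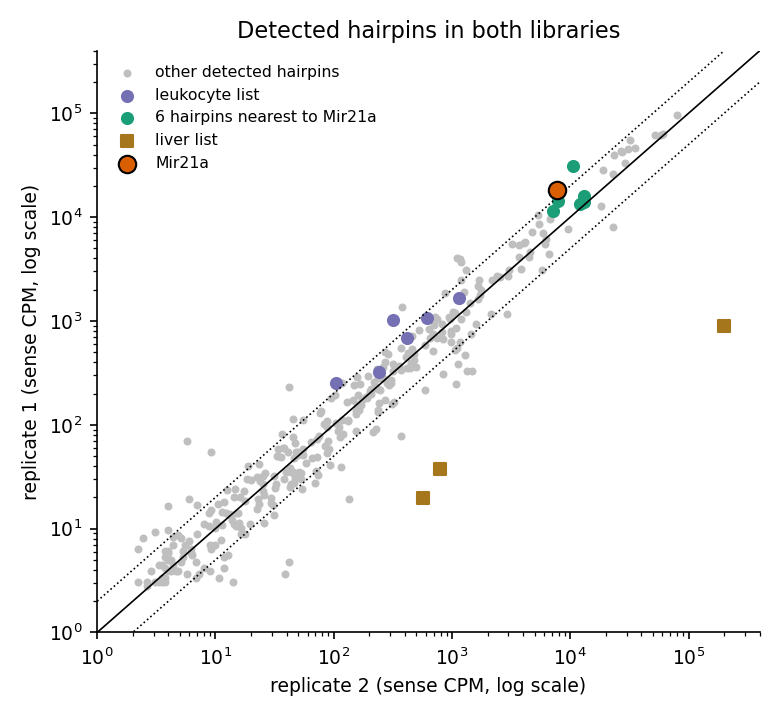
Level of each detected hairpin in replicate 1 (vertical) and replicate 2 (horizontal), in sense CPM on log scales, with the line of equality and dotted lines at 2-fold. Mir21a (orange) lies just above the upper 2-fold line, the 6 leukocyte hairpins (purple) lie above equality, and the 3 liver hairpins (brown squares) lie far below it.

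The size of the ratio depends on what the counts are set against. Mir122, the hepatocyte microRNA, took 0.0892% of the counts in replicate 1 and 19.8% in replicate 2, and every other hairpin is a share of a total that contains it. With Mir122 left out of both totals, Mir21a stood at 18183 CPM in replicate 1, against 9630 CPM in replicate 2, a mean of 13907 CPM ± 6048. The ratio was then 1.89-fold (1.86 to 1.91), and Mir21a was still called as higher in replicate 1. That total moved the median hairpin by -0.30 on the log2 scale. Of the calls, 29.9% were then higher in replicate 1, 75 (21.3% of those tested) against 176 (50%) in replicate 2, where 54.7% had been so with all counts. Another total rescales all hairpins of a library alike, so the distance of Mir21a from the median hairpin, 1.19 on the log2 scale, is nearly fixed under it.

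**Figure D4:**
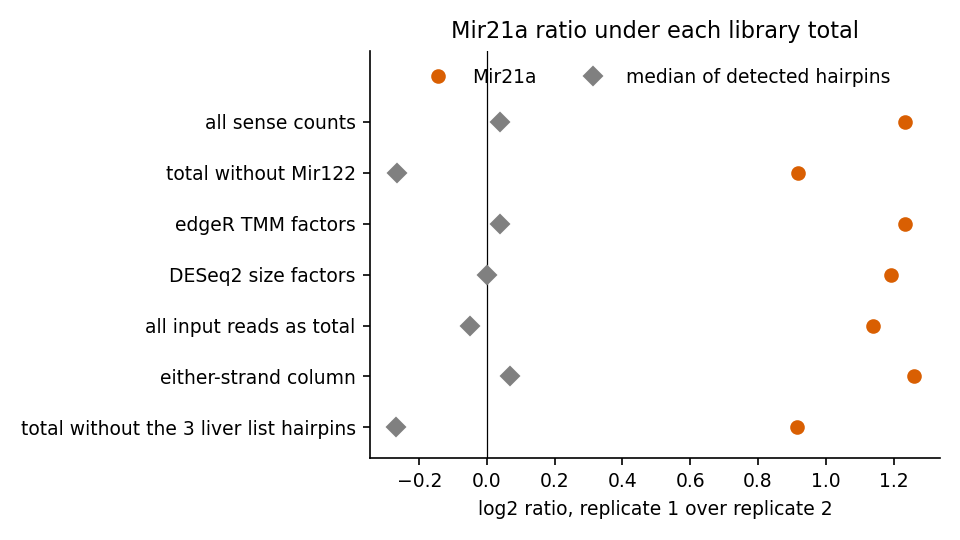
Log2 ratio of replicate 1 over replicate 2 (horizontal) for Mir21a (orange circles) and for the median detected hairpin (grey diamonds) under 7 choices of library total or strand column (rows). Mir21a lies between 0.91 and 1.26 in every row; the 2 symbols shift together because another total rescales all hairpins of a library alike.

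Ratios taken inside a library do not involve the total at all, although each restates the ratio of Mir21a beside that of 1 other hairpin. Its counts were divided by those of 46 detected hairpins, the members of the lists below and the 6 hairpins nearest to it in level. The quotient was higher in replicate 1 for 42 of the 46, against 94.9% of all 351 other detected hairpins, so the 46 lie near that background. Against Mir126a, an endothelial hairpin, it was 0.289 in replicate 1 (0.287 to 0.292, exact interval) and 0.127 in replicate 2 (0.126 to 0.129). Against Mir375, known from endocrine cells, it was 0.544 (0.539 to 0.549) and 0.266 (0.263 to 0.270). The 4 quotients that were higher in replicate 2 were those to Mir145a, Mir142, Mir10b and Mir223.

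For 5 of the 46 hairpins the intervals of the libraries overlapped. How many of all detected hairpins would do so was not computed, so this count has no background. An overlap requires only a ratio near that of Mir21a or few counts. Mir21a had 71.2 counts per Mir223 count in replicate 1 (66.7 to 76.1) and 73.4 in replicate 2 (67.1 to 80.5). It had 5.89 counts per Mir203 count in both, with intervals of 5.77 to 6.01 and 5.73 to 6.05. The remaining 3 were the scarcer Mir183, Mir199b and Mir199a-2, whose intervals are wide. Mir223 is a microRNA of myeloid cells and Mir203 one of squamous epithelium.

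By the distance of log2(CPM + 1) over both libraries, the hairpins most like Mir21a were, in order, Mir30a, Mir335, Mir30e, Mir99a, Mir127 and Mir10b. The distance was 0.33 for Mir30a and 0.90 for Mir10b. It is taken over 2 libraries and ranks mostly by level. Mir30a had 14441 CPM in replicate 1, against 7927 CPM in replicate 2, a 1.82-fold difference. Mir335, which lies in the imprinted gene Mest, had 11407 and 7124 CPM, a 1.60-fold difference. Of the 6, only Mir10b had a higher ratio than Mir21a.

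Hairpins near Mir21a on chromosome 11 did not share its level. Within 1500 kb the annotation has 4 others. Mir301, 529 kb away, had 140 CPM in replicate 1, against 163 CPM in replicate 2, and was called as higher in replicate 2. Mir142, 1173 kb away and on the other strand, had 1010 CPM in replicate 1, against 317 CPM in replicate 2, a 3.19-fold difference in the direction of Mir21a. Mir5110 and Mir142b had 0 counts in both.

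Other hairpins that published work links to angiotensin II or aldosterone went both ways between the libraries. The list names 15 besides Mir21a, of which 12 were detected, and the 3 genes for miR-124a had 0 sense counts in both. Reads common to several gene copies were not counted, so a count of 0 there does not show that miR-124a was absent. Of the 12, 6 were called as higher in replicate 1, 3 as higher in replicate 2 and 3 were not called, while 36.6% and 30.4% of all detected hairpins were called in these directions, so the list lies near that background. The median log2 ratio was 0.12, against 0.04 over all detected hairpins. With Mir122 out of the totals, 5 were higher in replicate 1 and 7 in replicate 2, against 21.3% and 50% of all. Mir10b, reported in human cells to act on the 11β-hydroxylase and aldosterone synthase genes of the cortex, had the highest ratio of the list, 2.96-fold. Mir23a and Mir23b, whose cluster includes the miR-24 reported to target the same genes in human cells, were 1.60-fold and 1.56-fold higher in replicate 1. Mir24-2 stood at 86.1 CPM in replicate 1, against 216 CPM in replicate 2, and Mir24-1 at 30.1 and 38.3 CPM. The copies of miR-24 carry the same mature sequence, and reads common to both were not counted. Mir125a had 3093 CPM in replicate 1, against 5781 CPM in replicate 2, and Mir34a had 305 and 839 CPM. In mean level Mir23a, Mir23b, Mir375 and Mir10b stood above Mir21a within this list.

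Hairpins linked to corticotropin (ACTH), the pituitary hormone that drives glucocorticoid output, or to steroid synthesis overlap that list at Mir132, Mir212 and Mir125a. All 13 were detected, with 4 called as higher in replicate 1, 6 as higher in replicate 2 and 3 not called, and with 4 and 9 called when Mir122 was left out of the totals. The shares over all detected hairpins were 36.6% and 30.4%, and 21.3% and 50% without Mir122. Their median log2 ratio was -0.30, against 0.04 over all. Mir335 led them at 11407 CPM in replicate 1, against 7124 CPM in replicate 2. Mir132, reported to respond to ACTH in rat adrenal, had 819 and 530 CPM, a 1.54-fold difference, and its neighbour Mir212 had 35.1 and 43.4 CPM, which was not called. Mir214, which is also a fibroblast hairpin, had 248 CPM in replicate 1, against 1088 CPM in replicate 2. Summed, these 13 hairpins held 2.01% of the counts in replicate 1 and 1.94% in replicate 2, so Mir21a alone had 0.903 and 0.398 of their combined level.

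Leukocytes also express miR-21. All 6 leukocyte hairpins were detected and called as higher in replicate 1, against 36.6% of all detected hairpins, with a median log2 ratio of 0.77, against 0.04 over all. With Mir122 out of the totals 5 were so called, against 21.3% of all detected hairpins. Their summed level was 5011 CPM in replicate 1, against 2832 CPM in replicate 2. Mir142, found across blood cell lineages, was 3.19-fold higher in replicate 1, Mir223 2.42-fold, Mir342 1.76-fold, Mir150 1.66-fold, Mir146 1.45-fold and Mir155 1.35-fold. Mir21a thus fell inside the range of the list. Mir21a had 3.63 times their summed level in replicate 1 and 2.73 times in replicate 2. In whole tissue, fewer cells of a type and less of the microRNA per cell cannot be told apart, and the part of leukocytes in the Mir21a difference was not tested.

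Fibroblasts and smooth muscle express miR-21 as well, and their marker hairpins went both ways. Of the 6, 5 were detected and Mir199a-1 had 0 counts in both libraries. Reads common to Mir199a-1 and Mir199a-2 were not counted, so neither value gives the level of miR-199a. As called, 3 were higher in replicate 1, 1 was higher in replicate 2 and 1 was not called, with a median log2 ratio of 0.72, against 0.04 over all detected hairpins, of which 36.6% were called as higher in replicate 1 and 30.4% in replicate 2. Mir145a had 3953 CPM in replicate 1, against 1162 CPM in replicate 2, a 3.40-fold difference, and Mir143, from the same cluster, had 45599 and 30787 CPM, a 1.48-fold difference. Mir214 went the other way, as given above. The summed level was 49832 CPM in replicate 1, against 33054 CPM in replicate 2. Its part in the Mir21a difference was not tested either.

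Among markers of other cell types, those of endothelium, adipose tissue and red cells had log2 ratios of 0.05 to 0.26. Mir126a of endothelium had 62826 CPM in replicate 1, against 60799 CPM in replicate 2, and Mir378a of adipose tissue had 62350 and 58488 CPM. Both were called as higher in replicate 1 with all counts and as higher in replicate 2 with Mir122 out of the totals. The erythroid pair Mir451a and Mir144 summed to 1487 and 1248 CPM, and both were called as higher in replicate 1 with all counts and not called without Mir122. All 4 neuroendocrine hairpins, known from chromaffin and other endocrine cells, were detected, with a summed level of 39476 CPM in replicate 1, against 33420 CPM in replicate 2. Of them 3 were called as higher in replicate 1, with log2 ratios of 0.49 for Mir7-1, 0.48 for Mir7b and 0.20 for Mir375, and Mir7-2 as higher in replicate 2, with a log2 ratio of -0.56. The shares over all detected hairpins were 36.6% and 30.4%, and 21.3% and 50% without Mir122. With Mir122 out of the totals Mir375 was also called as higher in replicate 2. The 3 liver hairpins summed to 949 CPM in replicate 1, against 198911 CPM in replicate 2. The 6 skeletal muscle hairpins summed to 993 CPM in replicate 1, nearly all Mir206, and to 0.661 CPM in replicate 2, and Mir133a-2 and Mir133b had 0 counts in both. Reads common to the gene copies of miR-1a, miR-133a or miR-7 were not counted, so the levels of these hairpins may be too low. The part of liver or muscle RNA in the Mir21a difference was not tested.

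**Figure D5:**
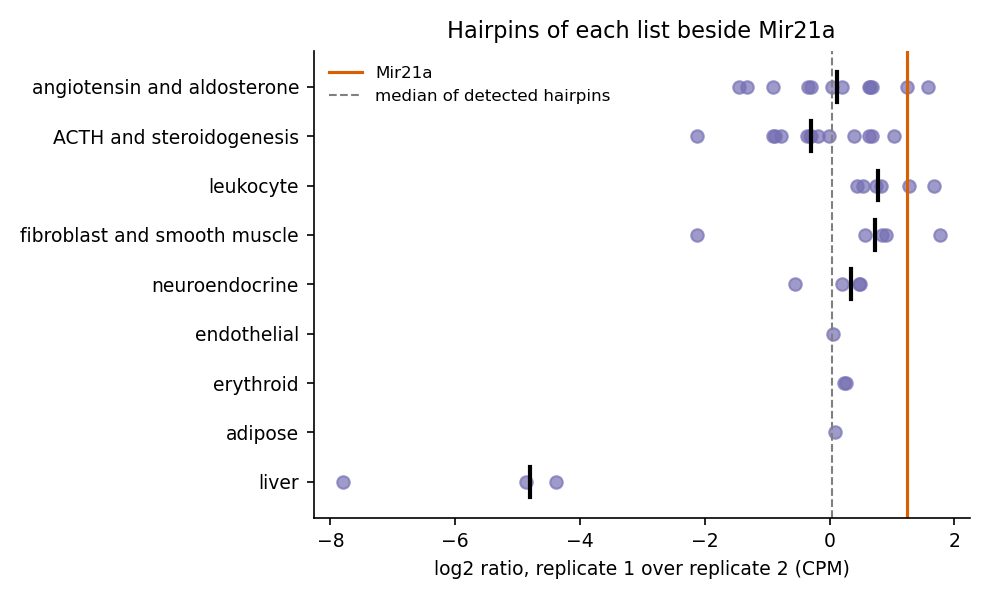
Log2 ratio of replicate 1 over replicate 2 for the detected hairpins of each list (points, Mir21a left out), with the median as a black bar where a list has 3 or more. The orange line is Mir21a at 1.23 and the dashed line the median detected hairpin at 0.04; the leukocyte points lie on both sides of Mir21a and all above the dashed line.

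No messenger RNA was measured, so effects of miR-21a on its targets are outside these data, but the annotation shows where its seed could pair. The 3′ UTRs of GENCODE M21, the longest for each gene, were searched on the transcript strand for ATAAGCT, the reverse complement of the seed. It occurred in 7.19% of 21022 genes, and the form followed by A, an 8-base match, in 2.10%. Of 8 genes known from textbooks as miR-21 targets, 6 held an 8-base match: Pdcd4, Spry1, Spry2, Reck, Timp3 and Smad7. Btg2 and Tpm1 did not hold ATAAGCT in the UTR searched. Of 13 genes for adrenal steroid synthesis and its control, among them Star, Cyp11a1, Cyp11b1, Cyp11b2, Nr5a1, Mc2r and Agtr1a, 0 held it. With 7.19% of all genes holding it, 0 of 13 lies near that background. The UTRs searched in these 13 ran from 29 bases in Cyp11b2 to 3096 in Star, against a median of 961 over all genes. A short UTR has little room for a match. Both gene sets were chosen with the microRNA values known, and a match or its lack says nothing of regulation. The match in Pdcd4, an inhibitor of translation that is the best studied miR-21 target, is shown with the match in capitals as it reads in Pdcd4-201 at chr19:53929412-53929439 on the plus strand (mm10).
Pdcd4 site: accgaagtgtgggtgttctgATAAGCTA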

How the data were processed

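Small RNA of adrenal gland, below 30 bases per the labels, was sequenced in 2 libraries of 1 group. The authors deposited raw counts of reads per microRNA gene, made against mm10 with GENCODE M21 per the text files beside the tables. Neither aligner nor trimming is given in the sources used here. The 4 summary lines name no gene and were left out of totals. Of 8666085 input reads in replicate 1, 41.4% fell in the sense of a microRNA gene and 31.6% had several mapping positions. For replicate 2 these were 10284575, 44.2% and 27.0%.

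Sense counts were scaled to CPM. Genes reaching 10 counts in each library were compared by an exact two-sided binomial test with Benjamini-Hochberg adjustment at 0.05. The script was tested on simulated counts that varied between libraries only by counting noise and planted differences. That does not cover the variation between replicates seen here. Intervals are exact (Clopper-Pearson, 95%), and a count of 0 was read as up to 3 counts. List medians used log2 ratios with a pseudocount of 1 CPM. Of the 2202 genes, 968 matched the RefSeq microRNA table by name, and Mir193 was matched to Mir193a as an older symbol.

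Named were Mir21a, its relatives, its 6 nearest hairpins in level, 3 above and 3 below it in mean level, hairpins within 1500 kb, list members and Mir122. Members, lists and tests were chosen with earlier results of these data known. The hairpins with a higher ratio than Mir21a, those in 3′ UTRs, Mir22 and the target genes were chosen after their values were seen. A further target gene is not reported here. Alternatives were totals without Mir122, edgeR 4.0.16 TMM factors, DESeq2 1.42.0 size factors, all input reads, the either-strand column, count minimums of 1 and 50, pseudocounts of 0.1 and 10 CPM, and each library left out. A total without the 3 liver hairpins was added after seeing the data. Tests were run with scipy 1.17.1 in Python 3.11.15, normalisation in R 4.3.3 and folding with RNAfold 2.7.2.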

Additional observations from a re-analysis of the deposited data

Results flagged for a closer look

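Antisense counts were compared on their own nowhere above, and entered the either-strand alternative. Among the hairpins named, Mir203, which faces no annotated hairpin, was the only such one to exceed in both libraries the 3 antisense counts that a count of 0 allows. It had 385 antisense counts beside 11071 sense counts in replicate 1, and 571 beside 5963 in replicate 2. Mir21a, whose sense counts kept the same proportion to those of Mir203, had 0.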

How the results depend on the processing

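Mir21a was higher in replicate 1 and was called under each total, count minimum, pseudocount and strand column tried, with log2 ratios of 0.91 to 1.26. The pseudocount does not enter the test, and no count minimum tried could remove a hairpin of this depth. Only the totals, that of the either-strand column included, could have changed the call. Its mean level was 5467 per 1000000 when all input reads were the total, a larger base, and stayed within 1 SD of 12947 CPM under the other totals and the either-strand column. Leaving out 1 library gave 7728 to 18167 CPM and ranks of 15 to 23, so the level rests on which library is read. The number of hairpins called ran from 208 to 251 around 236, but the number tested changed as well. It was 208 of 267 at a minimum of 50 counts and 241 of 567 at a minimum of 1. The either-strand column gave 210 of 323, against 236 of 352 in the main setting. The share called therefore varied more than the number called. List medians relative to all detected hairpins cannot move much under another total, which rescales all hairpins alike. The spread used here is 0.67 on the log2 scale for 1 hairpin. It is the SD of the log2 ratios over all detected hairpins, divided by the square root of 2. For a list it was divided further by the square root of the number of detected members. Of 30 list medians recomputed with another count minimum, pseudocount or strand column, 28 moved by less than the spread for their list. The angiotensin and aldosterone list gave 0.37 with the either-strand column, against 0.08. In that column Mir24-1 and Mir24-2 fell short of the count minimum and left the list, so its members were not the same. The liver list gave -4.32 with a pseudocount of 10 CPM, against -4.84. For 35 of the 46 within-library quotients the either-strand column holds the same counts. Another 7 hairpins fell short of 10 counts in that column, although Mir126a and Mir378a are among the most abundant by sense counts. They were Mir126a, Mir378a, Mir30e, Mir142, Mir451a, Mir24-1 and Mir24-2, and each lies opposite an annotated hairpin. Only the remaining 4 quotients could move, and each did by less than 0.67, the spread for 1 hairpin, a wider limit than for the lists. No paired analysis was possible because there is 1 group. Depth does not limit the Mir21a values, whose intervals are narrow, while 2 libraries do.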
